A study of Mus musculus with 14 samples.

Results

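The 10 genes described here encode the BMP receptors and the SMAD proteins that carry the BMP signal, out of 53700 genes in the deposited tables. They were taken by name: the type I receptors Bmpr1a, Bmpr1b and Acvr1, the type II receptor Bmpr2, the receptor-regulated SMADs Smad1, Smad5 and Smad9, the common SMAD Smad4, and the inhibitory SMADs Smad6 and Smad7. Poly-A RNA of neural stem and progenitor cells (NSPCs) from adult C57BL/6 mice was sequenced in 14 libraries. Quiescent cells were treated with BMP4 (n = 4), and proliferating cells with FGF and EGF (n = 4). The other pair of groups was also kept in FGF and EGF, and received an adeno-associated virus carrying either GFP (GFP control, n = 3) or Cre-GFP (Yme1l KO, n = 3). The labels of all groups name a wild-type mouse, that of the Yme1l KO included, and name neither the allele that Cre recombines nor a promoter of the virus. They do not say whether replicates were separate animals or cultures, so p-values measure the spread between these libraries, which may be technical.

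BMP ligands are secreted dimers that bring type I and type II serine/threonine kinase receptors together at the cell surface. The type II receptor phosphorylates the type I receptor, which phosphorylates SMAD1, SMAD5 and SMAD9 (also called SMAD8). These join SMAD4, enter the nucleus and bind DNA, while SMAD6 and SMAD7 block the receptors or the active SMADs and are themselves induced by the pathway. In the adult brain, BMP signalling is known for holding neural stem cells in quiescence and for favouring astrocyte fates.

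Libraries held 6475099 to 10320736 estimated counts. Levels are given in CPM, each gene's count scaled by the TMM-adjusted library size, and group levels as mean ± SD. Yme1l1, the target of the deletion, lay between 121 and 135 CPM in the GFP control and between 22.9 and 25.7 CPM in the Yme1l KO, with no overlap. All 10 neural stem and progenitor markers and all 10 astrocyte markers were detected in every group. Stem and progenitor markers summed to 5017 to 5335 CPM in the Yme1l KO and 5953 to 6077 CPM in its control. Of the 9 tested, edgeR called 6 lower and 0 higher in the KO, against 26.2% lower and 25.4% higher over all genes. In quiescent against proliferating cells, 5 of 9 were lower and 3 higher, against 35.5% and 29.9%. Astrocyte markers gave 7 higher and 1 lower of 9 in the KO, and 6 higher and 3 lower of 10 in quiescent cells. Summed microglial markers (10 genes) were 5.37 to 10.7 CPM in quiescent and 1.72 to 2.003 CPM in proliferating libraries, with Cx3cr1, Itgam, Ptprc and C1qa at 0 in both groups. Summed endothelial markers (10 genes, Cldn5 and Emcn at 0) were 15.8 to 21.5 CPM against 9.17 to 10.4 CPM, and mural and fibroblast markers (10 genes, Pdgfrb, Col1a2 and Dcn at 0) were 88.8 to 104 CPM against 60.3 to 73.1 CPM. Astrocyte markers summed to 5641 to 6211 CPM in quiescent and 4653 to 4810 CPM in proliferating libraries, and to 1620 to 1842 CPM in the KO and 1275 to 1290 CPM in its control. In the KO and its control, endothelial markers summed to 18.7 to 20.9 against 11.9 to 14.5 CPM, mural and fibroblast markers to 97.9 to 103 against 79.0 to 85.7 CPM, and microglial markers to 4.99 to 7.21 against 3.35 to 5.57 CPM. Most of the mural and fibroblast sum was Cspg4, on average 82.4 CPM in quiescent and 57.0 CPM in proliferating cells. Cspg4 averaged 99.9 CPM in the KO and 79.9 CPM in its control, and is also in the oligodendrocyte lineage list. The part of any of these in the results was not tested.

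The genes lie on 8 chromosomes in the deposited tables (build GRCm39). The receptors are Bmpr1a (ENSMUSG00000021796, chromosome 14, 34132691 to 34225298), Bmpr1b (ENSMUSG00000052430, chromosome 3, 141542897 to 141875186), Acvr1 (ENSMUSG00000026836, chromosome 2, 58278656 to 58457169) and Bmpr2 (ENSMUSG00000067336, chromosome 1, 59802559 to 59918173). Among the SMADs, Smad1 (ENSMUSG00000031681) lies on chromosome 8 (80065024 to 80126147), Smad5 (ENSMUSG00000021540) on chromosome 13 (56850823 to 56890190) and Smad9 (ENSMUSG00000027796) on chromosome 3 (54663003 to 54708678). Smad4 (ENSMUSG00000024515, 73772080 to 73836851) and Smad7 (ENSMUSG00000025880, 75500600 to 75529006) share chromosome 18, and Smad6 (ENSMUSG00000036867, 63860358 to 63929341) lies on chromosome 9.

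Quiescent and proliferating cells were compared first, which asks how the receptors and SMADs stand in cells held by BMP4 and in dividing cells. Both inhibitory SMADs rose about 22.2-fold to 22.5-fold in the quiescent cells, Smad9 rose 9.13-fold, and all 4 receptors rose by 2.04-fold to 5.54-fold. Smad5 was the 1 gene that fell, by 1.996-fold, while Smad1 and Smad4 did not pass the test. Thus 8 of 10 genes were called, 7 higher and 1 lower, against 65.4% of the 12245 genes tested (29.9% higher and 35.5% lower). A call together with at least a 2-fold change was made for 7 of 10 genes, against 20.7% of all genes tested, and 8 of 10 had groups that did not overlap, against 59.7%. The median log2 fold change was 1.94 over the 10 genes and -0.01 over all genes tested. With library size alone as the scaling, the median of all genes moved from -0.01 to -0.15, and the members' calls became 7 higher and 3 lower. Over all 12245 genes tested, the calls then were 2823 higher and 5219 lower. The bulk libraries cannot tell fewer cells of a type from less RNA per cell.

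**Figure D1:**
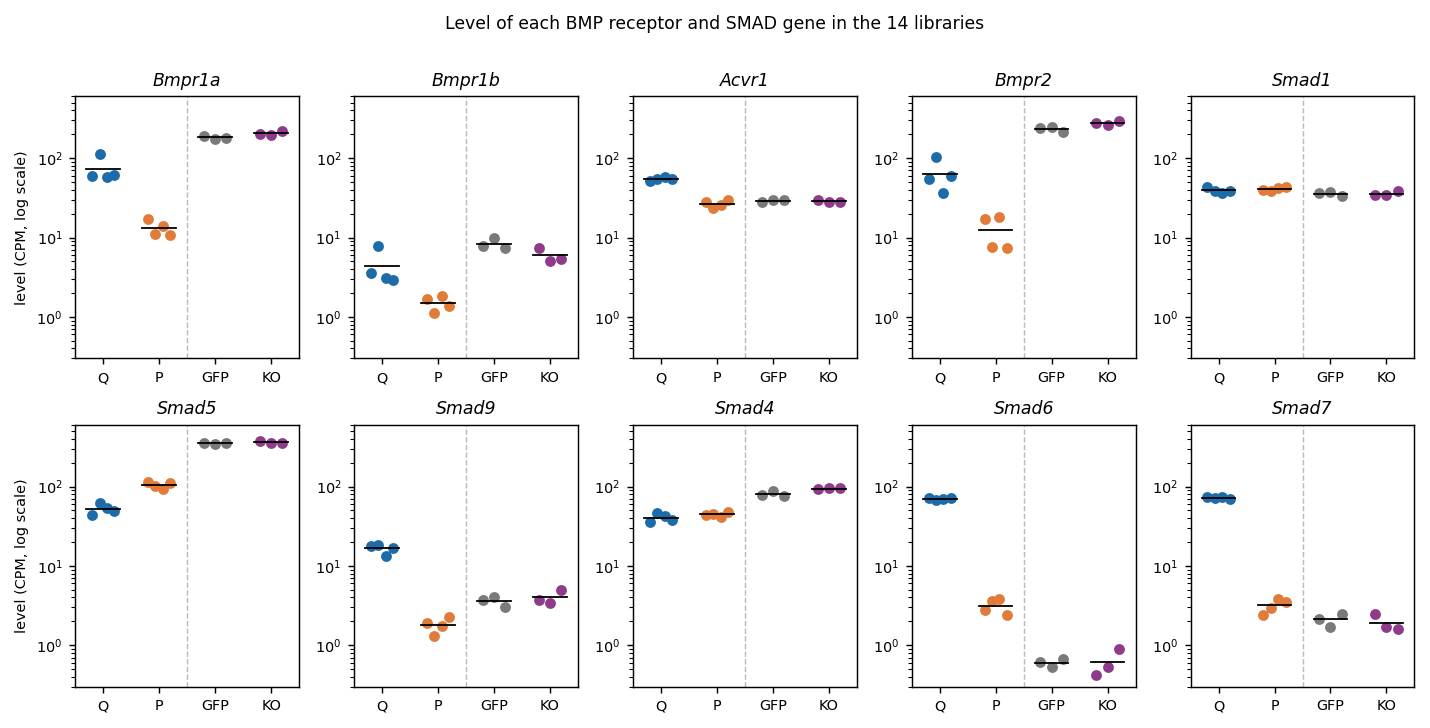
Level of each gene in each library, in CPM on a log axis; points are libraries, lines are group means, and the dashed line separates the pairs of groups that the authors quantified in separate tables (Q, quiescent; P, proliferating; GFP, GFP control; KO, Yme1l KO). Smad6 and Smad7 lie between 67.6 and 74.4 CPM in the 4 quiescent libraries and below 4 CPM in every other library.

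Acvr1 encodes ALK2, a type I receptor that serves BMP6 and BMP7. It stood at 51.4, 54.4, 58.4 and 54.1 CPM in the 4 quiescent libraries and at 28.2, 23.8, 25.5 and 29.3 CPM in the 4 proliferating libraries. Every quiescent library lay above every proliferating one, and the libraries of each group lay close together. On the log2 scale it rose by 1.03 (SE 0.08, adjusted p = 1.08e-08). Acvr1 was the steadiest of the 4 receptors: quiescent library 2 read 0.996 times the mean of the other quiescent libraries.

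Bmpr1a encodes ALK3, the type I receptor to which BMP2 and BMP4 bind with high affinity. Its levels were 60.3, 113, 57.3 and 61.1 CPM in the quiescent libraries and 16.9, 11.2, 14.1 and 10.7 CPM in the proliferating libraries. The groups did not overlap, and quiescent library 2 stood at 1.89 times the mean of the others of its group. Its log2 fold change came to 2.47 (SE 0.30, adjusted p = 0.000257). Without quiescent library 2 it was 2.25 (SE 0.12, adjusted p = 3.95e-12).

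Bmpr1b encodes ALK6, the closest relative of ALK3 among the type I receptors. Its levels were 3.56, 7.71, 3.09 and 2.93 CPM in quiescent and 1.69, 1.10, 1.84 and 1.38 CPM in proliferating libraries. These levels rest on 19 to 66 counts in a quiescent library and 10 to 17 counts in a proliferating one. Again the groups did not overlap and quiescent library 2 was the highest. Its log2 fold change was 1.54 (SE 0.35, adjusted p = 0.00115), and 1.16 (SE 0.31, adjusted p = 0.00265) without that library.

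Bmpr2 encodes the BMP type II receptor, which carries a long cytoplasmic tail. Quiescent libraries held 54.6, 103, 36.5 and 59.9 CPM and proliferating libraries 17.2, 7.51, 18.2 and 7.35 CPM. Every quiescent library was above every proliferating one, but both groups were spread, with the proliferating libraries in a high and a low pair. A log2 fold change of 2.34 was found (SE 0.46, adjusted p = 0.00396), with the widest error of the 10 genes, against 2.08 (SE 0.40, adjusted p = 0.00558) without quiescent library 2. With a replicate block it was 2.32 (SE 0.60, adjusted p = 0.0695) and no longer called. That block joins libraries of the same replicate number. Quiescent library 3 and proliferating library 5 have no such partner and add nothing to the comparison. Over all 12245 genes tested, the calls with the block were 2859 higher and 3694 lower.

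Bmpr1a, Bmpr1b and Bmpr2 share a low GC content of their annotated transcripts, at 41.3%, 42.2% and 41.0%. The 1223 tested genes of lowest GC content, up to 42.1%, had a median log2 fold change of 0.31 between quiescent and proliferating cells, and the 1223 of highest GC content had -0.18. Over those of lowest GC content, quiescent library 2 stood 0.54 above the rest of its group on the log2 scale. With each library's trend with GC content removed, the log2 fold changes were 2.21 for Bmpr1a, 1.296 for Bmpr1b and 2.08 for Bmpr2, and all 3 remained called (adjusted p = 1.52e-09, 0.000871 and 0.000463).

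**Figure D2:**
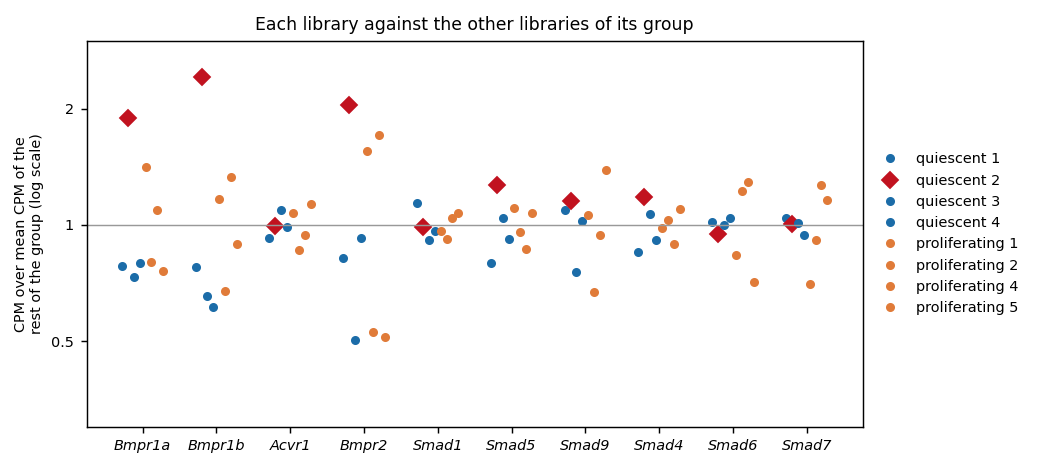
CPM of each gene in each quiescent (blue) and proliferating (orange) library, divided by the mean CPM of the other libraries of its group, on a log axis; the diamond is quiescent library 2. It stands at 1.89 for Bmpr1a, 2.41 for Bmpr1b and 2.05 for Bmpr2, and between 0.947 and 1.27 for the other 7 genes.

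Among the SMADs, the DNA around the start of 3 genes is printed because they moved furthest apart among those with a RefSeq promoter window: Smad6 and Smad9 rose and Smad5 fell. The windows cover 250 bases before to 50 bases after an annotated start (RefSeq, build GRCm38.p6) and are written 5′ to 3′ on the strand of the gene. Smad6 is at chr9:64022010-64022309 on the minus strand, Smad9 at chr3:54755332-54755631 on the plus strand, and the first of 3 Smad5 starts at chr13:56702760-56703059 on the plus strand. Capitals mark GGCGCC and GGAGCC (the latter on either strand, so also as GGCTCC), GC-rich elements that receptor-regulated SMADs bind in vitro, and GTCTAGAC, the palindromic SMAD box.
Smad6: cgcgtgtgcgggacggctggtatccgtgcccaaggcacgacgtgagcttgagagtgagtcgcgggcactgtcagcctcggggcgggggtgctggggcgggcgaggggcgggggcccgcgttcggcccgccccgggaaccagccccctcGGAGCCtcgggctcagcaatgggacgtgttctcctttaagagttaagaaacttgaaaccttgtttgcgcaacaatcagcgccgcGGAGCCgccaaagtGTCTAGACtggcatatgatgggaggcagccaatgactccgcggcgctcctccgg
Smad9: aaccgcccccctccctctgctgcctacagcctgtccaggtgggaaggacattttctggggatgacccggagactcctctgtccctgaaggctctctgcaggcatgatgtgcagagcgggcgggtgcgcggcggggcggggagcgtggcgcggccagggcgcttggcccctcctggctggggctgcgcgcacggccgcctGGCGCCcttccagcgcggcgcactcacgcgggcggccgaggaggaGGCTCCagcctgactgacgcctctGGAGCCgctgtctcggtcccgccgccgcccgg
Smad5: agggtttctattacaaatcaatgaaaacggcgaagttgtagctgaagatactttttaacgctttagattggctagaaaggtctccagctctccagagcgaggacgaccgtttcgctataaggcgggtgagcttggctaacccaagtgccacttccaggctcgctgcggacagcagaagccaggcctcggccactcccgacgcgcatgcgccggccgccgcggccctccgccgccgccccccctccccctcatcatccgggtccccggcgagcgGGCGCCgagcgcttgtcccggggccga

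Counting the annotated start as 0, the Smad6 window held GTCTAGAC from position -4 and GGAGCC from positions -102 and -18. In the Smad9 window GGCGCC began at -51 and GGAGCC at -6 and 18, and in the Smad5 window GGCGCC began at 23. Over all 32851 RefSeq windows of this length, 0.213% held GTCTAGAC, 11.9% held GGCGCC and 30.8% held GGAGCC on either strand. Of the 8 genes described here that had a window, GTCTAGAC was in that of Smad6 alone, GGCGCC in those of 4 (Bmpr1a, Bmpr2, Smad5 and Smad9) and GGAGCC in those of 5 (Acvr1, Bmpr1b, Smad5, Smad6 and Smad9). Counted by window these were 1, 5 and 6 of 12, since Bmpr1b and Smad5 had several. The GGAGCC of Smad5 lay in a window not printed. GC content was 66.3% in the Smad6, 73.7% in the Smad9 and 63% in the printed Smad5 window, against a median of 52.7% over all windows. Other motifs were searched too, and were not more common here. The motif C-A-G-A-C was in 3 of 12 windows (Bmpr1b and Smad5 only), against 49.6% of all windows. Extended by an A, it was in 1 of 12 (Bmpr1b), against 21.0%. A longer spaced motif that begins with the first GC-rich element was in 0 of 12, against 0.0731%. These matches describe letters only, and binding was not measured.

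Smad1 encodes a receptor-regulated SMAD that the type I receptors phosphorylate directly. It read 43.2, 38.9, 36.6 and 38.2 CPM in quiescent and 39.8, 38.3, 42.1 and 43.0 CPM in proliferating libraries, and the groups overlapped. Between them it differed by -0.06 on the log2 scale (SE 0.07, adjusted p = 0.511).

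Smad5, the close relative of Smad1, went the other way from the receptors. Its level was 44.0, 62.2, 54.0 and 49.0 CPM in quiescent libraries and 113, 101, 94.2 and 111 CPM in proliferating libraries, with no overlap. Its log2 fold change, -0.997, had an SE of 0.10 and an adjusted p of 1.80e-06.

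Smad9 encodes the third receptor-regulated SMAD of the pathway, which in cultured cells is a weaker activator than SMAD1 and SMAD5. It stood at 17.8, 18.5, 13.3 and 16.9 CPM in quiescent and 1.90, 1.33, 1.74 and 2.30 CPM in proliferating libraries. Every quiescent library was several times above the highest proliferating one, which rest on 12 to 20 counts each. It rose by 3.19 on the log2 scale (SE 0.20, adjusted p = 6.62e-10), and 124 of the 12245 genes tested rose by more.

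Smad4 encodes the common partner of the BMP and TGF-beta branch SMADs. Its level was 35.9, 45.9, 42.6 and 37.8 CPM in quiescent and 44.0, 45.5, 40.8 and 47.7 CPM in proliferating libraries, which overlapped. The change was -0.13 on the log2 scale (SE 0.08, adjusted p = 0.191). Scaling by library size alone gave -0.27 for Smad4 (adjusted p = 0.0178) and -0.20 for Smad1 (adjusted p = 0.0252), the additional pair of lower calls named above.

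Smad6 encodes an inhibitory SMAD that acts mainly on the BMP branch. Quiescent libraries held 71.3, 67.6, 70.3 and 72.7 CPM, and proliferating libraries 2.74, 3.64, 3.797 and 2.41 CPM. The 4 quiescent libraries lay within a narrow band far above the others, where a library held 21 to 35 counts. Smad6 rose by 4.48 on the log2 scale (SE 0.11, adjusted p = 1.28e-14).

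Smad7 encodes the inhibitory SMAD of both branches, which recruits SMURF ubiquitin ligases to active receptors. It was at 74.4, 72.4, 72.7 and 68.8 CPM in quiescent and 2.43, 2.98, 3.797 and 3.56 CPM in proliferating libraries. As for Smad6, every quiescent library lay far above every proliferating one. Smad7 rose by 4.49 on the log2 scale (SE 0.11, adjusted p = 8.02e-15), and 61 of the 12245 genes tested rose by more.

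Yme1l KO and GFP control cells were compared next, which asks whether the receptors and SMADs moved when the mitochondrial protease YME1L was deleted in proliferating cells. The changes were small: Bmpr2 rose 1.19-fold, Smad4 1.16-fold and Bmpr1a 1.12-fold, and Bmpr1b fell 1.38-fold. Of the 9 genes tested, 4 were called, 3 higher and 1 lower, against 51.6% of the 12625 genes tested (25.4% higher and 26.2% lower), a share near the background. None of the 9 reached 2-fold with a call, against 5.23% of all genes tested. Groups did not overlap for 3 of the 9, against 61.4% of all genes tested. The median log2 fold change was 0.04 over the 9 genes and 0.00 over all genes tested. With all 14 libraries in 1 fit, edgeR called 0 of 10 genes in this comparison. Over all 13580 genes tested, that fit called 2439 higher and 2996 lower. DESeq2 on the libraries of this pair of groups called 2 of 9. Over all 12625 genes tested, DESeq2 called 2636 higher and 2781 lower.

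**Figure D3:**
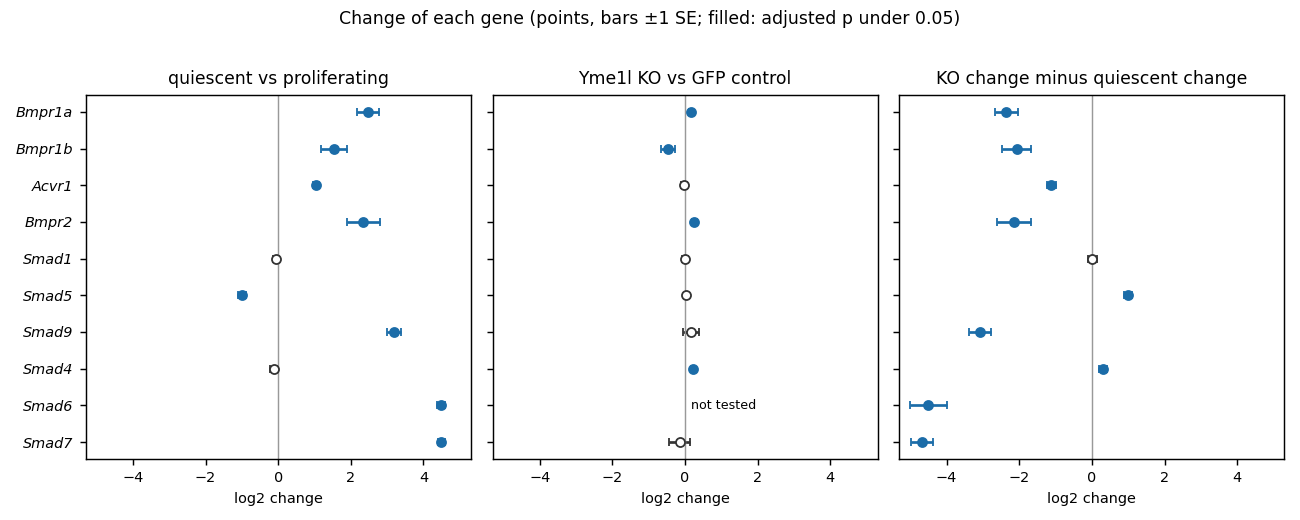
Log2 fold change of each gene between quiescent and proliferating cells, between Yme1l KO and GFP control cells, and the difference of those changes (KO change minus quiescent change); bars are ±1 SE and filled points passed an adjusted p under 0.05. Smad6 was below the count filter in the Yme1l comparison, so its point in the third panel restates its quiescent change. The values run from -0.997 to 4.49 in the first panel and from -0.47 to 0.25 in the second.

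Bmpr2 stood at 242, 245 and 216 CPM in the GFP control and 276, 265 and 298 CPM in the Yme1l KO. All KO libraries were above all controls, by 0.25 on the log2 scale (SE 0.06, adjusted p = 0.00246). The call was lost under 1 of 18 alternatives, the fit of all 14 libraries together (adjusted p = 0.606).

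Bmpr1a was at 193, 176 and 181 CPM in the control and 199.99, 196 and 219.9 CPM in the KO, again without overlap. Its log2 fold change was 0.16 (SE 0.06, adjusted p = 0.0236), and 8 of 18 alternatives ended the call, among them DESeq2 (adjusted p = 0.0505) and leaving out GFP control library 2 (0.130) or 3 (0.0929). Bmpr1b read 7.74, 9.75 and 7.28 CPM in the control and 7.33, 5.05 and 5.43 CPM in the KO, and KO library 1 overlapped the control. Its log2 fold change was -0.47 (SE 0.18, adjusted p = 0.0448), and 9 of 18 alternatives ended the call. The KO libraries that were left out with that effect were 2 (adjusted p = 0.153) and 3 (0.0689), and the controls were 1 (0.0720) and 2 (0.193). Acvr1 lay at 28.2, 29.7 and 29.7 CPM against 29.8, 27.6 and 28.1 CPM, with overlap and a log2 fold change of -0.03 (SE 0.08, adjusted p = 0.752).

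Of the SMADs, Smad4 read 78.9, 87.8 and 75.8 CPM in the control and 92.1, 94.6 and 95.5 CPM in the KO, without overlap. Its log2 fold change was 0.22 (SE 0.06, adjusted p = 0.00817). The call was lost under 5 of 18 alternatives. On TPM-scaled counts it was 0.08 (adjusted p = 0.489), and without GFP control library 3 it was 0.17 (adjusted p = 0.0597). Smad5 lay at 355, 348 and 351 CPM against 370.1, 352 and 357 CPM, and did not pass (log2 fold change 0.04, SE 0.05, adjusted p = 0.544). Smad1 at 33.2 to 38.5 CPM (adjusted p = 0.967), Smad9 at 3.06 to 4.98 CPM (0.587) and Smad7 at 1.58 to 2.49 CPM (0.705) overlapped between the groups and did not pass. Smad7 held 16 to 26 counts in a control library and 14 to 23 in a KO library. Smad6 held 4 to 8 counts in each of these 6 libraries and was not tested.

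The authors' deposited tables gave adjusted p under 0.05 for 8 of the 10 genes between proliferating and quiescent cells and for 2 in the Yme1l comparison. Those 2 were Bmpr2 (adjusted p = 0.00577) and Bmpr1b (0.0362) in the authors' deposited table, which gave 0.115 for Bmpr1a and 0.637 for Smad4. The share over all genes was not counted for the authors' tests.

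The difference between the changes was tested in 1 fit of all 14 libraries. It passed for 9 of 10 genes, 2 higher and 7 lower, against 38.9% of the 13580 genes tested (21.0% higher and 18.0% lower). One of the 9 was Smad6, which entered that fit through its high quiescent counts and had no usable value in the KO, so 8 of the 9 genes testable in both tables passed. The change of Smad7 in the KO minus its change in quiescent cells was -4.69 on the log2 scale (SE 0.30, adjusted p = 1.08e-10). The same difference was -3.09 for Smad9 (SE 0.29, adjusted p = 4.31e-08) and -1.11 for Acvr1 (SE 0.12, adjusted p = 3.17e-07). It was 0.98 for Smad5 (SE 0.11, adjusted p = 4.48e-07) and 0.30 for Smad4 (SE 0.11, adjusted p = 0.0398), and the call of Smad4 was lost under 15 of 23 alternatives. Smad1 differed by 0.01 (SE 0.12, adjusted p = 0.952) and did not pass.

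Levels of different genes were compared on TPM, which is per transcript length. In quiescent cells the inhibitory SMADs had the highest means of the 10 genes, with 43.4 ± 3.95 TPM for Smad7 and 42.7 ± 0.966 TPM for Smad6 (SD, n = 4). Their ranges overlapped each other and those of Acvr1 (38.7 ± 3.39 TPM) and Bmpr1a, which ran from 23.1 to 49.2 TPM, so the order of these 4 genes is not set by the data. In proliferating cells Smad4 (28.6 ± 1.90 TPM) and Smad5 (27.8 ± 2.67 TPM) led with overlapping ranges, followed by Smad1 at 23.7 ± 1.56 TPM. The range of Smad1 (22.2 to 25.8 TPM) also overlapped that of Smad5 (24.8 to 30.1 TPM). Smad5 led in the GFP control at 99.3 ± 0.710 TPM (SD, n = 3) and in the KO at 103 ± 1.36 TPM (SD, n = 3), above Bmpr1a at 64.9 ± 4.98 and 73.8 ± 6.78 TPM. Bmpr1b was the lowest receptor in each of the 4 groups, between 0.604 and 3.75 TPM on average.

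The make-up of each class also differed. Inhibitory SMADs took 54.5% to 59.1% of the summed TPM of the 6 SMADs in quiescent libraries and 3.46% to 7.46% in proliferating libraries. In the same libraries Smad4 took 13.0% to 17.4% against 31.0% to 36.0%, while its TPM was 24.2 ± 4.06 against 28.6 ± 1.90. Among the receptor-regulated SMADs, Smad9 took 12.8% ± 1.29 in quiescent and 1.11% ± 0.183 in proliferating cells, and Smad5 took 32.8% ± 4.24 and 53.3% ± 2.31 (SD, n = 4). Acvr1 supplied 55.8% ± 7.48 of the type I receptor TPM in quiescent and 73.4% ± 4.65 in proliferating cells, while its own TPM was 38.7 ± 3.39 against 17.3 ± 1.60. In the GFP control and KO it supplied 22.1% ± 1.49 and 20.0% ± 1.67 (SD, n = 3), and Bmpr1a 73.6% ± 2.31 and 77.6% ± 1.84. The share of Acvr1 thus differed between proliferating and GFP control cells, although both were kept in FGF and EGF. Acvr1 transcripts have a GC content of 48.7% and those of Bmpr1a 41.3%. The part of GC content in the order and shares of genes was not tested.

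**Figure D4:**
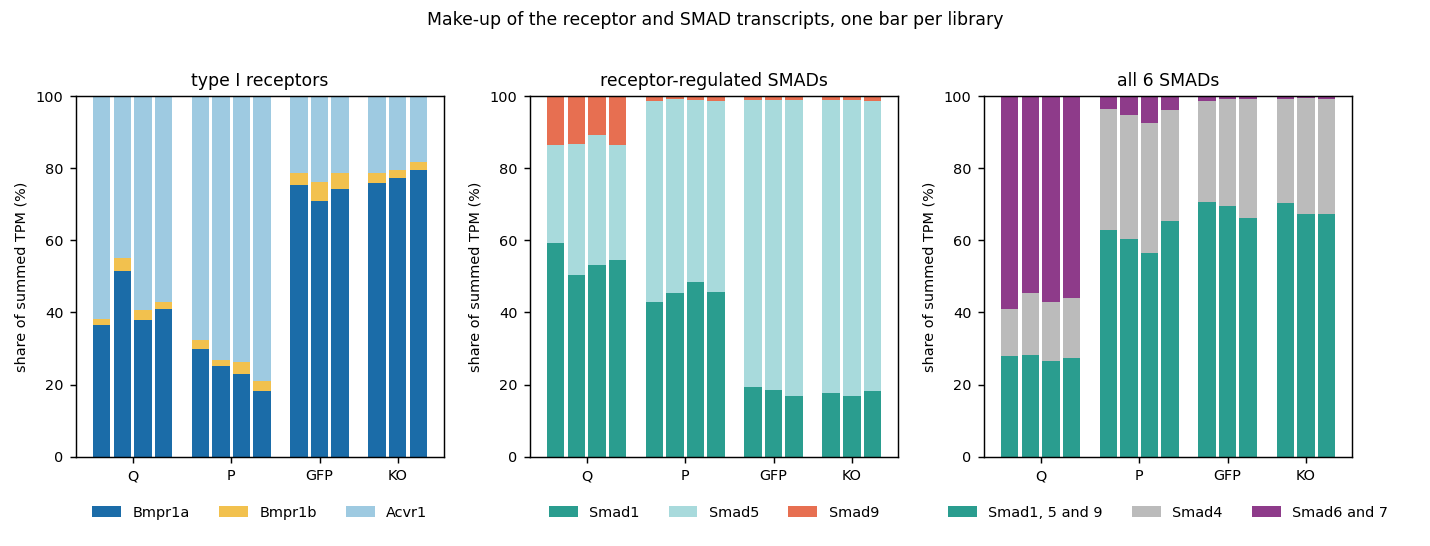
Share of summed TPM (percent) held by each gene within the type I receptors, within the receptor-regulated SMADs, and by class within the 6 SMADs, with 1 bar per library. The inhibitory SMADs hold 54.5% to 59.1% in the 4 quiescent libraries, and at most 7.46% elsewhere.

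Proliferating and GFP control cells were both kept in FGF and EGF, but were quantified in separate tables, so the following ratios were not tested. Mean TPM in the GFP control over that in proliferating cells was 19.7 for Bmpr2, 11.3 for Bmpr1a, 6.21 for Bmpr1b and 3.58 for Smad5. It was 1.13 for Acvr1, 0.943 for Smad1 and 0.204 for Smad6. The genes with the highest ratios were those of low GC content, and Yme1l1 itself read 2.18 to 11.1 CPM in the quiescent and proliferating libraries against at least 121 CPM in the GFP control. Levels should be read within a table, and there too the order and shares of genes of unlike GC content are uncertain.

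The deposited transcript counts showed which annotated forms carried each gene. Smad9 had the single transcript Smad9-201, Smad6-201 held 99.9% of the Smad6 counts in quiescent cells, and Bmpr2-201 held 100% of the Bmpr2 counts in all groups to the first decimal. Smad5-201 held 96.3% to 98.6% of the counts of Smad5 over the 4 groups, and Smad1-202 held 92.5% to 98.2% of those of Smad1. Bmpr1a-201 held 84.4% in quiescent, 79.3% in proliferating and 92.5% in GFP control and KO cells. Acvr1 was divided among Acvr1-201, Acvr1-203 and Acvr1-204, the last with 39.9% in quiescent and 20.5% in proliferating cells. Single libraries overlapped for Acvr1-204, from 23.5% to 47.9% in quiescent and from 0% to 42.4% in proliferating cells. Bmpr1b-204 took 28 of 55 Bmpr1b counts in proliferating cells and 0 of 128 in quiescent cells, too few for a firm share. Transcript shares are estimates by the quantifier and were not tested.

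Genes elsewhere in the pathway were read from lists. Between quiescent and proliferating cells, 56 of 90 tested list genes were called, 38 higher and 18 lower (30 higher and 23 lower with library size alone as the scaling). Over all genes tested 65.4% were called, 29.9% higher and 35.5% lower, so the share of list genes called was near the background. The list that stood furthest from the other genes was that of BMP targets, with 15 of 18 tested genes higher, 2 lower and a median log2 fold change of 2.25, beside -0.01 over all genes tested. Nog, a secreted BMP antagonist, rose by 7.01 (SE 0.09, adjusted p = 1.35e-17), Atoh8 by 5.70 (SE 0.10, adjusted p = 5.69e-16) and Id1 by 3.37 (SE 0.07, adjusted p = 5.07e-15), all on the log2 scale. The 2 lower genes were Smoc1 (-1.98) and Hes1 (-0.62), a Notch target as well.

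Other receptors and co-receptors gave 4 higher and 2 lower of 10 tested (median 0.07). Bambi, a pseudoreceptor without a kinase domain, rose by 2.15 (SE 0.12, adjusted p = 1.44e-10), and Neo1, a co-receptor for repulsive guidance molecules, by 1.14 (SE 0.06). Acvr2b fell by 1.11 (SE 0.26, adjusted p = 0.00168) and Tgfbr2, the TGF-beta type II receptor, by 0.97 (SE 0.07). Of 26 TGF-beta branch SMADs and cofactors, 9 were higher and 5 lower (median 0.12): Zfp423, a zinc-finger partner of BMP SMADs, rose by 2.80 (SE 0.07), and the corepressors Skil and Ski by 1.98 (SE 0.41) and 1.41 (SE 0.05), while Tgif2 fell by 1.76 (SE 0.06). Of 28 turnover and phosphatase genes, 9 were higher and 7 lower (median 0.11), with the ubiquitin ligase Smurf2 up by 0.61 (SE 0.13). BMP and GDF ligands gave 1 higher (Gdf11, 0.80) and 1 lower (Gdf9, -0.76) of 4 tested. TGF-beta and activin ligands gave 1 higher (Tgfb3, 0.75) and 1 lower of 5, the latter being Inhbb, an activin subunit, at -3.09 (SE 0.10, adjusted p = 3.73e-13).

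In the Yme1l comparison 46 of 87 tested list genes were called, 33 higher and 13 lower. Over all genes tested 51.6% were called, 25.4% higher and 26.2% lower, again a share near that of the lists. BMP and GDF ligands gave 4 higher and 0 lower of 6 tested by edgeR (median 0.36, beside 0.00 over all genes): Gdf15, a stress-induced cytokine, rose by 1.43 (SE 0.17, adjusted p = 0.000334), Gdf11 by 0.39, Bmp1 (a procollagen protease despite its name) by 0.37 and Bmp7 by 0.24. TGF-beta and activin ligands gave 3 higher and 1 lower of 4, with Inhbb at -0.59 (SE 0.10). Other receptors gave 5 higher and 1 lower of 10, with Tgfbr3 up by 0.79 (SE 0.15) and Rgmb, a BMP co-receptor, by 0.71 (SE 0.08). Turnover genes gave 11 higher and 3 lower of 28, led by Tob1 at 0.99 (SE 0.11) and Uchl5 at -0.70 (SE 0.10). The cofactors gave 7 higher and 5 lower of 26. Of 14 BMP targets tested, 3 were higher (Id1 at 0.45, Id2 at 0.55 and Fst at 0.74) and 3 lower (Smoc1 at -1.32, Chrdl1 at -0.93 and Hey1 at -0.41), with a median of 0.05.

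**Figure D5:**
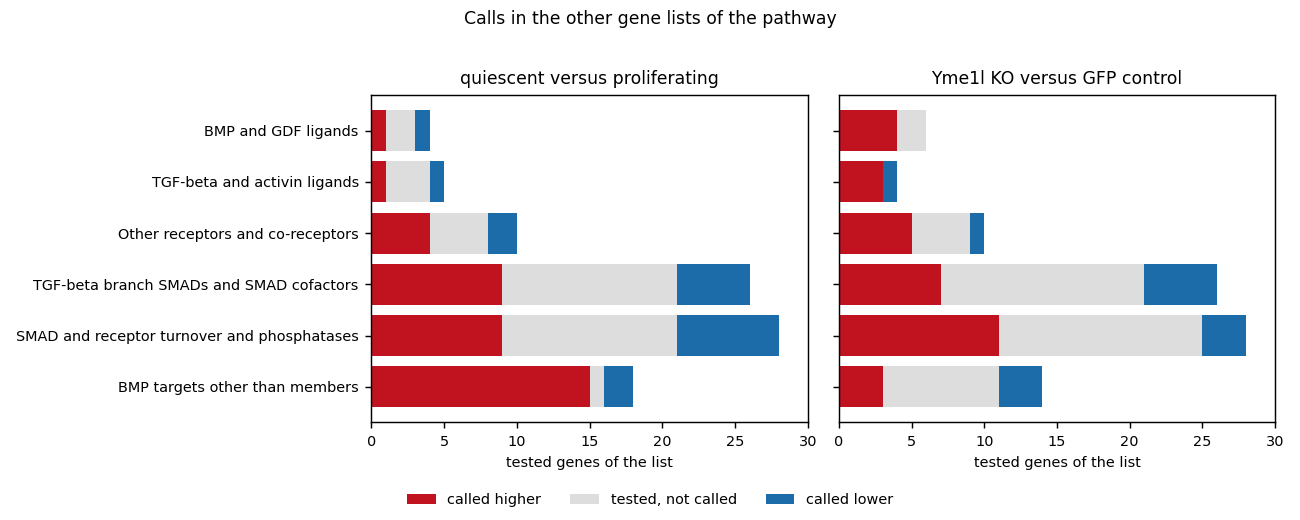
Number of tested genes of each other pathway list that were called higher (red), tested but not called (grey) or called lower (blue), for quiescent against proliferating cells and for Yme1l KO against GFP control cells. BMP targets show 15 higher of 18 in the first comparison and 3 higher of 14 in the second.

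For each gene called with at least a 2-fold rise in quiescent cells, the genes most like it were sought by Pearson's r of log2 CPM, centred within each table, over 14 libraries and 9459 genes. The points share libraries and the quiescent change itself, so r is a description. Nearest to Smad6 were Bag3 (r = 0.998), Cxxc5 and Mtch1, and nearest to Smad7 were Ncan (r = 0.994), Serpinf1 and Cdh22. Smad9 was nearest to Fbxo44 (r = 0.993), D430019H16Rik and Tmem64, and Acvr1 to Tmem64 (r = 0.985), Prkd1 and Nim1k. Bmpr1a was nearest to Pls3 (r = 0.996) and Mef2c, Bmpr2 to Evi5 (r = 0.992), Epha5 and Utrn, and Bmpr1b to Med12l (r = 0.974), Cntn1 and Megf9. Tmem64, near both Smad9 and Acvr1, was the only shared gene among those named here. Bmpr1a, Bmpr1b and Bmpr2 shared none with each other or with the rest. So few neighbours were kept per gene, out of 9459, that a lack of shared genes does not set any of these genes apart.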

How the data were processed

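Per the labels' protocols, poly-A selected RNA was sequenced from stranded TruSeq libraries, and per the deposited design tables the strand setting was reverse. The submitters' processing notes name GRCm39, DESeq2 1.30.1 and R 4.0.3, and the deposited files are named for salmon, with its version and annotation not given in the sources used here. The authors deposited estimated counts (expected counts per gene), TPM values, counts scaled from TPM, transcript counts, and test tables of log2 fold changes with adjusted p-values. Here the estimated counts were rounded, filtered (filterByExpr), scaled by TMM and fitted with edgeR's robust quasi-likelihood model (edgeR 4.0.16, R 4.3.3) on the libraries of both groups compared. Calls are adjusted p under 0.05 (Benjamini-Hochberg, over all genes tested). The SE was taken as the size of the log2 fold change divided by the root of the F statistic. The pairs of groups were quantified separately, so levels were tested within a table.

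The genes, lists and tests were chosen with earlier results of these data known. Named list genes were up to 4 per list and comparison with the largest called change at 5 CPM or more in a group, and lists of at most 8 tested genes could be named in full. Fst and Hey1 in the Yme1l comparison, and Smoc1 and Hes1 in the quiescent comparison, were named beyond that rule, after their values were seen. Most-like genes were the nearest 3, of which 1 is not reported here. GC content came from GENCODE vM21 transcripts by gene ID (99.9% of tested genes), and promoters from RefSeq. The table of promoters held 8 of the 10 genes. Precision is limited by 6475099 to 10320736 counts per library, and the reads carry no molecular identifiers. The analysis was tested on simulated data. Alternatives were RLE, library size, DESeq2 1.42.0, limma on log2(TPM + 1) and log2(TPM + 0.1), no filter, a filter of 1 CPM, length-scaled counts, all 14 libraries, a replicate block and leaving out each library. GC trend removal and TPM-scaled counts were chosen after seeing the data.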

Additional observations from a re-analysis of the deposited data

Results flagged for a closer look

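Quiescent library 2 stood apart from the other libraries of its group for both Bmpr1a (113 CPM, with a gap to the next library of 0.931 of the group's range) and Bmpr1b (7.71 CPM, gap 0.869 of the range). These were 2 of 20 gene-by-group combinations of 4 libraries, and chance alone gives about 1 in 20.

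The change in the Yme1l KO differed from the change in quiescent cells, by the test of the difference itself, for 8 of the 9 genes testable in both tables. Over all 13580 genes tested, 38.9% were called. On the log2 scale the KO change minus the quiescent change was -4.69 for Smad7, -3.09 for Smad9, -2.35 for Bmpr1a (adjusted p = 9.97e-05), -2.14 for Bmpr2 (adjusted p = 0.00420), -2.07 for Bmpr1b (adjusted p = 0.000392) and -1.11 for Acvr1. It was 0.98 for Smad5 and 0.30 for Smad4, whose call was lost under 15 of 23 alternatives.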

How the results depend on the processing

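Over 590 alternative values of the single genes' changes, 520 kept direction and side of the threshold, 39 lost a call, 2 gained 1 and 29 changed sign. The 8 calls between quiescent and proliferating cells stayed at 8 with each replicate left out, and of these genes Bmpr2 lost its call with a replicate block (log2 fold change 2.32, adjusted p = 0.0695). In the Yme1l comparison the 4 calls became 2 with DESeq2, 1 on TPM-scaled counts (8 genes tested), 0 with all 14 libraries in 1 fit, and 2 with limma on log2(TPM + 0.1) and on log2(TPM + 1). Leaving out each library gave 2 to 4, with 2 without GFP control library 2 and without library 3. Over all genes, the calls were 2270 higher and 2522 lower of 12931 on TPM-scaled counts. With limma they were 2343 and 2636 of 12625 at a pseudocount of 0.1, and 2356 and 2646 at 1. Without GFP control library 2 they were 2738 and 2922 of 12849, and without library 3 they were 2683 and 2888 of 12822. The 46 list calls became 30 on TPM-scaled counts. The cause of each was not tested. The difference between the changes was called for 8 or 9 genes, Smad6 counted, under every left-out library. The replicate block also ended the Yme1l call of Bmpr1b (adjusted p = 0.0543). Same-numbered libraries did not deviate together (r = -0.21, -0.34 and -0.01 for quiescent and proliferating, -0.00093, -0.05 and -0.0063 for GFP control and KO). These values cannot decide whether the samples were paired, because trends of single libraries, such as quiescent library 2 with GC content, also enter them.

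Sign changes came almost all from Smad1, near 0 throughout. Between quiescent and proliferating cells it was 0.0495 with the GC trend removed, 0.00034 with the replicate block and -0.0883 to 0.0318 over left-out libraries, above 0 without quiescent library 2, 3 or 4. In the Yme1l comparison it was -0.0143 with the GC trend removed, -0.00098 on TPM-scaled counts, -0.0257 with all 14 libraries, -0.0310 with library size alone, -0.0029 with limma on either pseudocount, -0.00017 without a filter, and -0.0523 to 0.0358 over left-out libraries. Its difference between the changes was -0.0898 with DESeq2, -0.0902 with RLE, -0.0655 with the GC trend removed, -0.0086 on TPM-scaled counts, -0.0112 without a filter, -0.0449 with the replicate block, and -0.037 to 0.064 over left-out libraries. In the Yme1l comparison Smad5 was -0.00028 with library size alone, and Smad9 ranged -0.0152 to 0.258 over left-out libraries. Depth limits Smad6 (4 to 8 counts per library) and Smad7 (14 to 26 counts) in the Yme1l comparison. It also limits Bmpr1b and Smad9 in proliferating cells (10 to 20 counts).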

Other observations

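Markers of further cell types were read over the whole lists. Summed neuroblast and neuron markers (10 genes, Stmn2 at 0) were 52.7 to 107 CPM in quiescent and 51.2 to 77.0 CPM in proliferating libraries, and 1170.2 to 1265 and 1215 to 1271 CPM in the GFP control and KO, overlapping in both comparisons. Most of this sum was Map2, which passed in neither comparison (edgeR, adjusted p = 0.461 and 0.874). Oligodendrocyte lineage markers (10 genes, Mog at 0) were 2917 to 3202 CPM in quiescent and 3875 to 4314 CPM in proliferating libraries, and 2391 to 2524 CPM in the GFP control and 2965 to 3359 CPM in the KO. Ependymal markers (6 genes, Tmem212 at 0) were 50.1 to 59.0 and 72.2 to 78.9 CPM, and 16.3 to 20.6 and 20.8 to 27.8 CPM, in the same order of groups. Their part in the changes of the receptors and SMADs was not tested.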
